A study of Rattus norvegicus with 2 samples.

Results

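Integrins and laminins are the receptors and ligands by which heart cells hold to the basement membrane. The genes described here are those whose name in the deposited peak annotation begins with Itga, Itgb, Lama, Lamb or Lamc followed by a digit. They were 21 of 8094 gene names and carried 146 of 28706 peaks. A current gene table lists 34 protein-coding genes with such names, so 13 had no peak under their name. Integrin genes named with a letter, such as Itgav, fall outside this choice and are given separately.

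The peaks come from a chromatin immunoprecipitation (ChIP) library of heart muscle from male Wistar rats, in which a wire tied against the abdominal aorta above the renal arteries constricts the vessel and loads the heart with pressure. The labels call this library Model_3 and give the antibody as a catalogue number. Its target was taken from the series title to be lactylated H3K18, a histone mark derived from lactate. The age of the rats, the number that gave tissue and the time after surgery are not given in the labels, values of its paired input library were not analysed here, nor was an unoperated or stimulated group. There is 1 library and no replicate, so no value has a replicate error and no test was made.

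An integrin is a pair of membrane proteins, an α and a β chain, that binds matrix outside the cell and links it through talin and other adaptors to actin inside. A laminin is a trimer of an α, a β and a γ chain, and sheets of laminin form the core of basement membranes around each cardiomyocyte and beneath the endothelium. In heart muscle integrin β1 pairs mainly with α7 and binds laminin with the α2 chain, vessels lie on laminins with α4 or α5 chains, and leukocytes use β2 and β7 integrins and α4 to leave the blood.

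Promoter sequences are shown for 4 members with a peak at the transcription start site (TSS) and 2 leukocyte members without any peak, all chosen after the peaks were seen, to show the bases before their starts. Each is the 250 bases before the start in RefSeq on GRCr8, a later build than that of the peaks, so a start may differ from the one used in the annotation. Capitals mark matches, on either strand, to GGGCGG (GC box) or CCGGAA (ETS core). The endothelial fibronectin receptor chain Itga5 lies at chr7:136381306-136381555, minus strand.
Itga5: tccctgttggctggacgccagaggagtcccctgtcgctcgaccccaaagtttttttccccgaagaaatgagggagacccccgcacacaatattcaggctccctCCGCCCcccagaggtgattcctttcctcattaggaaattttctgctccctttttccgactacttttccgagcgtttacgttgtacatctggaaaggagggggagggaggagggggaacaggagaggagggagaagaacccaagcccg
The endothelial laminin chain Lama5 lies at chr3:187695975-187696224, minus strand.
Lama5: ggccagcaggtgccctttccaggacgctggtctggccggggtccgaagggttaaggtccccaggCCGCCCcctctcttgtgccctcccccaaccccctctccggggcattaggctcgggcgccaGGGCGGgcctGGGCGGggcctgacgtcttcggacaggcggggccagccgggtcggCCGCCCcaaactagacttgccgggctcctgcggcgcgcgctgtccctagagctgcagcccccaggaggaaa
The endothelial laminin chain Lama4 lies at chr20:43946648-43946897, plus strand.
Lama4: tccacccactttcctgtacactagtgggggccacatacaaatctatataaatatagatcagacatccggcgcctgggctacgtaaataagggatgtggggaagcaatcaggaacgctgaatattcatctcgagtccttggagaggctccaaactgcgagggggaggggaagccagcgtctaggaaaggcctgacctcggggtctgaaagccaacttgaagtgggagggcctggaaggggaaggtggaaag
The shared integrin chain Itgb1 lies at chr19:73602027-73602276, plus strand.
Itgb1: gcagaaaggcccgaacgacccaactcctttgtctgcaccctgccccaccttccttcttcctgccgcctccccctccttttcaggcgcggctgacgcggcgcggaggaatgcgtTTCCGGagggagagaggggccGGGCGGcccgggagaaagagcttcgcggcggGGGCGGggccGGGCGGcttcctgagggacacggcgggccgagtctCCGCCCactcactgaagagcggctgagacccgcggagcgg
The leukocyte chain Itga4 lies at chr3:84569765-84570014, plus strand.
Itga4: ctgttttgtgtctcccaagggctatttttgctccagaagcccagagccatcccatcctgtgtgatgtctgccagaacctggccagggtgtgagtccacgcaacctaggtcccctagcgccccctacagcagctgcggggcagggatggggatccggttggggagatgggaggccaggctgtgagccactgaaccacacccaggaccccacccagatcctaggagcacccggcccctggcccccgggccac
The leukocyte chain Itgb7 lies at chr7:135239072-135239321, minus strand.
Itgb7: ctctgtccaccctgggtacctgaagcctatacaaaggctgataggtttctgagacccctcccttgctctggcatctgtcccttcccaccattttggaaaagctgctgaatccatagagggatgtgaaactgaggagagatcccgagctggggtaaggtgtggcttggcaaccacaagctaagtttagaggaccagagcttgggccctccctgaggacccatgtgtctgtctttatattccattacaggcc

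These 250 bases held 11 CpG dinucleotides at Itga5, 20 at Lama5, 8 at Lama4 and 28 at Itgb1. Those of Itga4 held 6 and those of Itgb7 held 1. The windows shown do not stand for their groups, since Itga8, without a peak, held 15 and Itga2b, with a peak, held 5. Over 33469 RefSeq promoters the median was 5, with quartiles of 2 and 15. The GC box was present 4 times at Lama5, 4 times at Itgb1 and 1 time at Itga5, and 30.5% of all promoters held at least 1. CCGGAA was present 1 time, at Itgb1, and in 12.6% of all promoters. The AP-1 letters TGANTCA, which 6.34% of all promoters held, had no match in these 6 windows. The letters AGATAA of the GATA factors, which 10.3% held, had none either, and no matches of different motifs overlapped. Promoters were found for 27 of 34 members (79.4%), under the 80% needed, so a comparison of base composition between members with and without a peak is void and nothing is read from these counts.

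Of the 34 genes, 21 had a peak of some class (61.8%, 95% Clopper-Pearson interval 43.6 to 77.8%), against 27.1% of 23148 protein-coding genes. A peak of the promoter class stood at 10 members (29.4%, 15.1 to 47.5%), against 9.87%. A peak of any class with its centre within 1000 bp of the TSS stood at 15 members (44.1%, 27.2 to 62.1%), against 17.1%. Peaks with a −log10 q of at least 5 stood at 16 members (47.1%, against 14.4%), and peaks of at least 4-fold at 18 (52.9%, against 19.7%). Intervals cover counting error only, peaks of 1 library are not independent molecules or animals, and gene length, which bears on the chance of holding a peak, was not analysed here. The sequencing depth is unknown, and each peak carries the name of the gene with the nearest TSS. A gene without a peak is therefore one whose name no called peak carried, and a peak under another name may still lie in it.

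**Figure D1:**
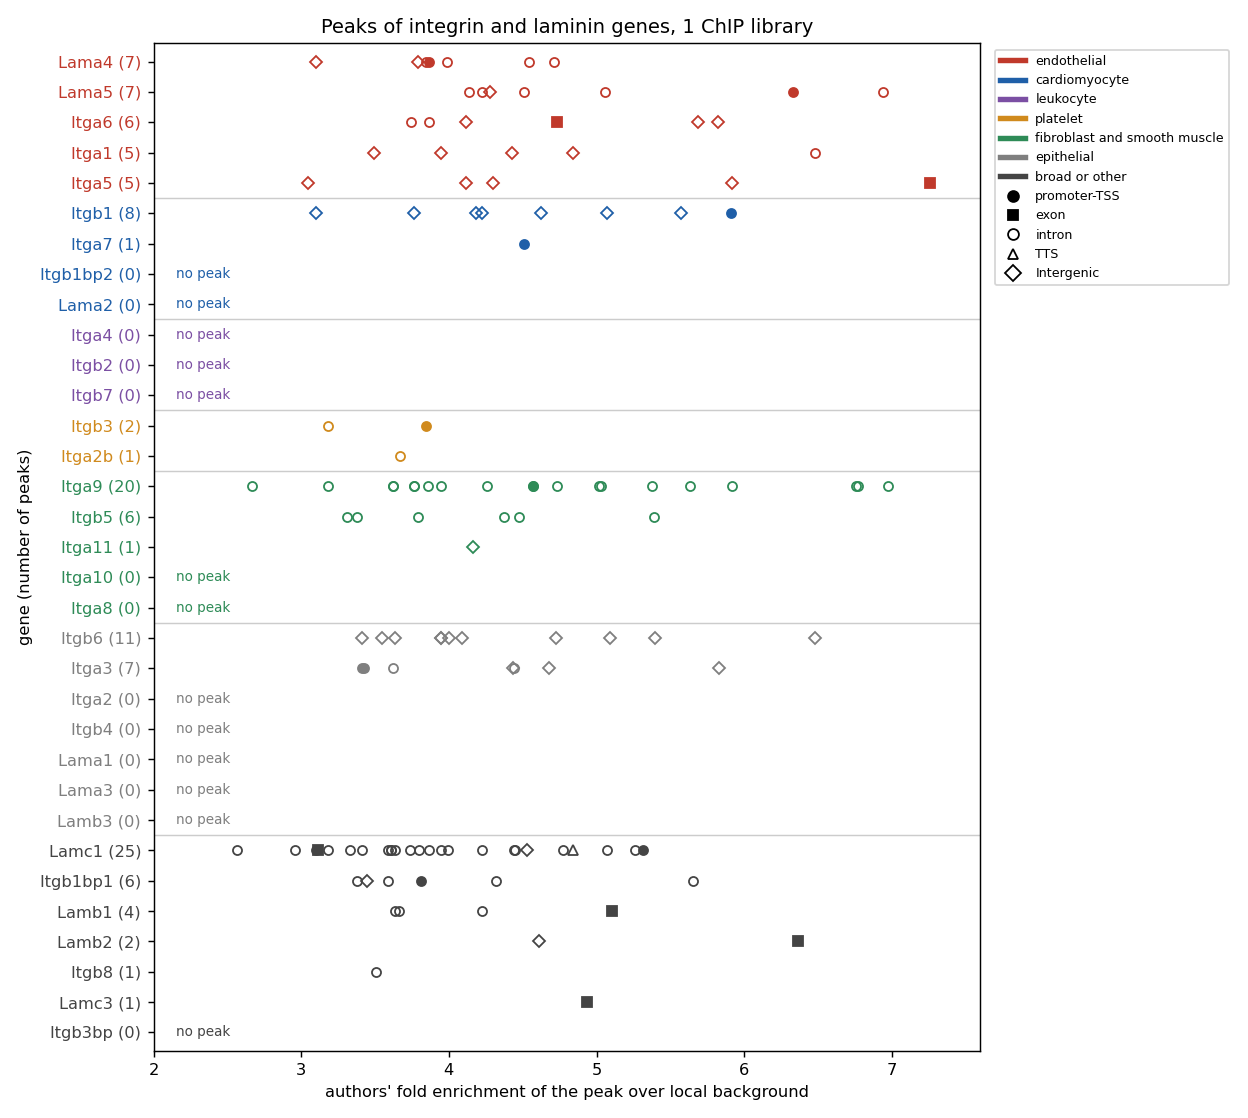
Fold enrichment of 126 peaks (x axis, the authors' ratio to local background) by gene (y axis, 33 genes with the number of peaks of each), grouped and coloured by the cell type for which a member is best known. Marker shape gives the peak's class in the annotation. All 5 endothelial genes have peaks, the 3 leukocyte genes have none, and the strongest peak is that of Itga5 at 7.26-fold.

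Members were grouped by the cell type for which they are best known. All 5 endothelial members (Itga1, Itga5, Itga6, Lama4, Lama5) had peaks, 30 in all, from 3.05 to 7.26-fold with a median of 4.29-fold. Of 4 cardiomyocyte members, Itga7 and Itgb1 had 9 peaks, from 3.10 to 5.91-fold with a median of 4.51-fold, and Lama2 and Itgb1bp2 had none. Of these 9 peaks 8 were of Itgb1, which almost every cell type uses, so the range and median mostly describe that gene. None of the 3 leukocyte members (Itga4, Itgb2, Itgb7) had a peak. The shares were 100% (interval 47.8 to 100%), 50% (6.76 to 93.2%) and 0% (0 to 70.8%), against 27.1% of all protein-coding genes. These intervals overlap, and those of the cardiomyocyte and leukocyte members include 27.1%. Of the other groups, platelet members had peaks at 2 of 2, broadly expressed or other members at 6 of 7, fibroblast and smooth muscle members at 3 of 5 and epithelial members at 3 of 8. Genes are not replicates, so the difference between the groups was not tested.

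**Figure D2:**
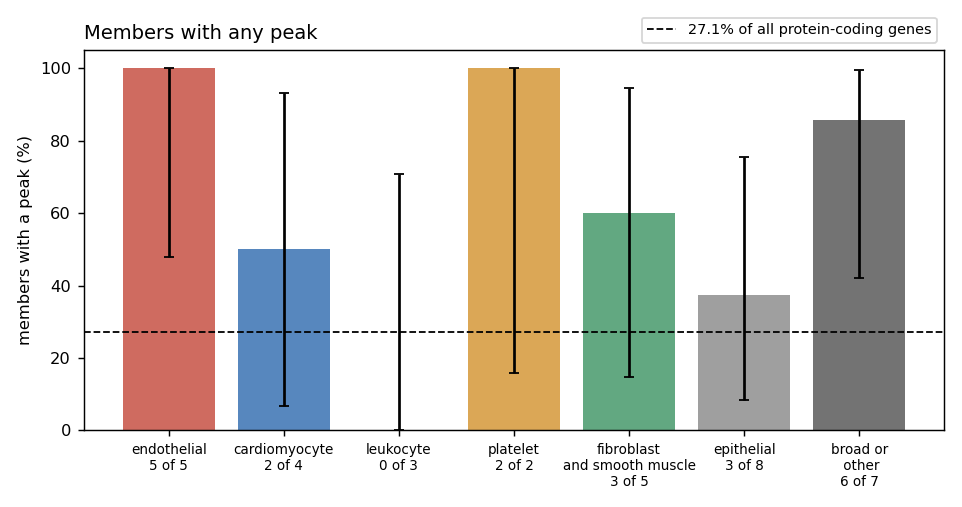
Percentage of members with any peak (y axis) by cell type group, with the number of genes below each bar. Lines are 95% Clopper-Pearson intervals and the dashed line is the share of all protein-coding genes, 27.1%. Endothelial members reach 100%, cardiomyocyte members 50% and leukocyte members 0%, with wide intervals.

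Each endothelial member had a peak within 1000 bp of its TSS, and strong peaks also lay farther upstream at Itga5 and Itga6. Itga5, which with β1 forms the fibronectin receptor, had the strongest peak of all members, 7.26-fold over exon 1 (chromosome 7, 144992539 to 144994143, centre 311 bp downstream of the TSS, rn6 as for all peaks below). It ranked 492 among 28706 peaks. The other 4 Itga5 peaks lay upstream, between genes, and the strongest of them reached 5.92-fold 11.2 kb away.

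Lama5, the α chain of mature endothelial basement membrane, had a cluster of 7 peaks within 12.5 kb. The strongest was 6.94-fold in intron 2 (chromosome 3, 175593514 to 175595109, 6.82 kb downstream). The promoter peak was 6.33-fold and, at 2539 bp, the widest of all member peaks (175600371 to 175602909). Every Lama5 peak reached at least 4.13-fold.

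Lama4, the α chain of young and capillary endothelial basement membrane, also had 7 peaks, but weaker ones. The promoter peak spanned 2299 bp across the TSS at 3.86-fold (chromosome 20, 44059521 to 44061819). The strongest was 4.71-fold in intron 1 (44080154 to 44080564, 19.6 kb downstream), and no Lama4 peak passed 5-fold. Both endothelial laminin α chains therefore had a broad promoter peak, which was the strongest peak of neither gene.

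Itga1, a collagen receptor chain of capillary endothelium and smooth muscle, had 6.48-fold in intron 1 (chromosome 2, 47279759 to 47281420, 832 bp downstream). Its other 4 peaks stood 4.68 to 6.53 kb upstream at 3.49 to 4.84-fold. Itga6, a laminin receptor chain, had its strongest peak 22.3 kb upstream at 5.82-fold (chromosome 3, 58420049 to 58421515). At its TSS were 2 peaks with centres within 1000 bp, 4.73-fold in exon 1 and 3.86-fold in intron 1. Neither gene had a peak of the promoter class, although both had one within 1000 bp, so the promoter class alone would list 2 of the 5 endothelial members and the 1000 bp window lists all 5.

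Among cardiomyocyte members, the shared β chain carried nearly all of the peaks. Itgb1, which pairs with many α chains in almost every cell type, had a promoter peak of 5.91-fold spanning 1846 bp (chromosome 19, 61676451 to 61678296). It had 7 more peaks between genes, from 8.93 to 46.3 kb upstream, at 3.10 to 5.57-fold. The centres of all 8 lay upstream of the TSS. Itga7, the main laminin receptor α chain of striated muscle, had 1 peak of 4.51-fold in the promoter class, 856 bp upstream of the TSS (chromosome 7, 3354130 to 3354391). Its −log10 q was 4.65, so at a −log10 q of at least 5 Itgb1 alone of this group remained. No peak carried the name of Lama2, the laminin α chain of muscle basement membrane, or of Itgb1bp2 (melusin), a muscle chaperone that binds integrin β1.

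**Figure D3:**
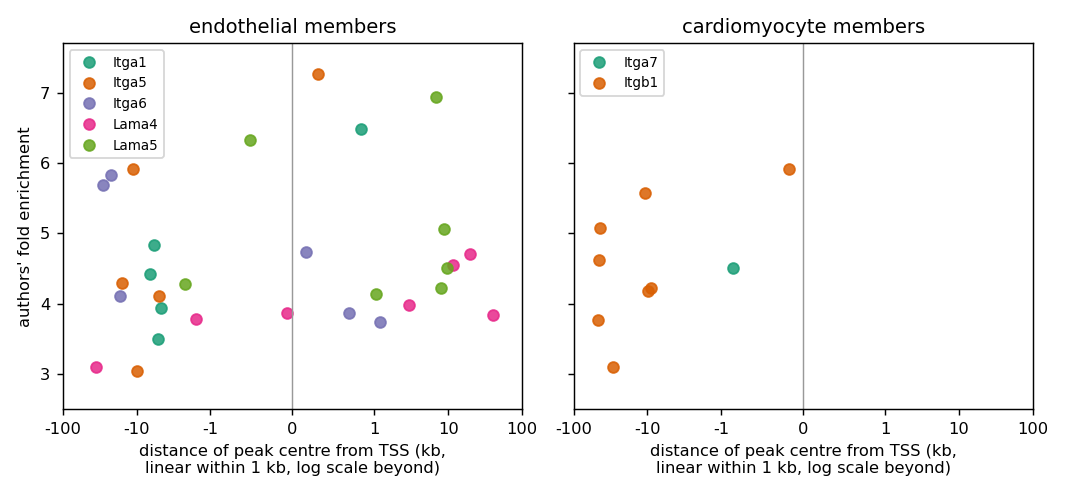
Fold enrichment (y axis) against the distance of the peak centre from the TSS (x axis, kb, negative upstream, log scale beyond 1 kb) for the 30 endothelial and 9 cardiomyocyte peaks, coloured by gene. Endothelial peaks lie on both sides of the TSS, with the strongest, of Itga5, just downstream at 7.26-fold. The centres of all 9 cardiomyocyte peaks lie upstream.

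By the position of the centre, 16 of the 30 endothelial peaks lay upstream and 14 downstream of the TSS, while all 9 cardiomyocyte peaks lay upstream. The promoter peak of Itgb1 nevertheless covered the TSS. The peaks of the cardiomyocyte group come from 2 genes, 8 of them from Itgb1. The split by position is therefore a description of Itgb1 and not of a cell type.

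Leukocyte integrins outside the naming rule had no peak either. Itgal, Itgam, Itgax and Itgad, the α chains that pair with β2, had no peak, nor did Itgae, which pairs with β7. With the 3 members this makes 8 leukocyte integrin genes, of which 0 had a peak (interval 0 to 36.9%). That interval includes the 27.1% of all protein-coding genes. In whole tissue, few cells of a type and little of the mark per cell cannot be told apart. Of 12 leukocyte marker genes, 0 had a promoter peak (interval 0 to 26.5%, which includes the 9.87% of all protein-coding genes). A promoter peak stood at 4 of 12 endothelial markers (9.92 to 65.1%) and 3 of 12 cardiomyocyte markers (5.49 to 57.2%), and these intervals overlap that of the leukocyte markers. A peak of any class stood at 3 of the 12 leukocyte markers (25%, near the 27.1% of all protein-coding genes). Spi1, a transcription factor of myeloid cells, had 6.23-fold 12.7 kb upstream of its TSS, Laptm5 4.34-fold 4.4 kb upstream and Csf1r 3.70-fold 6.7 kb upstream. No leukocyte marker had a peak with its centre within 1000 bp of the TSS. The defining markers Ptprc, Cd68 and Adgre1 had none. Of 12 endothelial markers 10 had a peak (83.3%), led by Esam at 9.63-fold, with none at Pecam1 or Emcn. Of 12 cardiomyocyte markers 8 had one (66.7%), with none at Ttn, Myh6, Ryr2 or Nppa. They were led by Pln at 7.04-fold in a peak 143 kb upstream of its TSS. Of 7 fibroblast markers 1 had a peak (14.3%, interval 0.361 to 57.9%). Of 7 smooth muscle and pericyte markers 3 had one (42.9%, 9.9 to 81.6%). Both intervals include the 27.1% of all protein-coding genes. The part of cell number in the counts of members was not tested.

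The platelet receptor for fibrinogen, αIIbβ3, had weak peaks at both chains. Itgb3, which endothelial cells also use, had a promoter peak of 3.85-fold over the TSS (chromosome 10, 92667754 to 92667954) and 3.18-fold in intron 5. Itga2b had 3.67-fold, 1.21 kb upstream of the TSS named, inside an intron of a transcript whose gene name could not be read from the peak annotation. None of these 3 peaks reached 4-fold.

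Members best known from fibroblasts and smooth muscle included the gene with the strongest intronic cluster. Itga9, a chain that binds tenascin and osteopontin, had 20 peaks. Its promoter peak over the TSS was modest, 4.57-fold (chromosome 8, 127271226 to 127271425). In intron 15 there were 11 peaks of 3.62 to 6.97-fold, and 10 of them stood within 18.8 kb (127393638 to 127412469). They included 3 of the 5 strongest member peaks, 6.97-fold (127393638 to 127394322), 6.77-fold (127410384 to 127410700) and 6.76-fold (127401213 to 127402042), which lay 123 to 139 kb downstream of the TSS. The strongest peaks of Itga9 lay far from its promoter peak.

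Itgb5, a vitronectin receptor chain, had 6 peaks of 3.31 to 5.39-fold. All lay in introns 1 to 5 of a transcript whose gene name could not be read from the peak annotation. Itga11, a collagen receptor chain of fibroblasts, had 1 peak of 4.16-fold, 47.8 kb upstream. No peak carried the name of Itga8, a chain of smooth muscle and mesenchymal cells, or of Itga10, a collagen receptor chain of cartilage.

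Among members best known from epithelia, Itga3 and Itgb6 had peaks and Itga2, Itgb4, Lama1, Lama3 and Lamb3 had none. Itga3, a laminin receptor chain, had 2 promoter peaks of 3.41-fold (chromosome 10, 82887626 to 82887825) and 3.43-fold (82888019 to 82888263), and its strongest peak, 5.83-fold, was 7.19 kb upstream. Itgb6, a chain that activates latent TGF-β at epithelia, had 11 peaks, all between genes and 14.0 to 47.3 kb upstream, at 3.41 to 6.48-fold. None lay in the gene or within 1000 bp of its TSS. The next gene on that side in the gene order is Rbms1, which carried 24 peaks of its own, the nearest 117 kb from the last peak named Itgb6. The name Itgb6 here therefore says which TSS was nearest.

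Lamc1, the γ chain of most laminins, had 25 peaks, the most of any member and rank 69 among all gene names by number of peaks. Its promoter peak was its strongest, 5.31-fold (chromosome 13, 70783898 to 70784721). Intron 1 held 18 peaks, of 2.56 to 5.26-fold with a median of 3.67-fold. Lamc1 and Itga9 together gave 45 of the 146 peaks (30.8%).

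**Figure D4:**
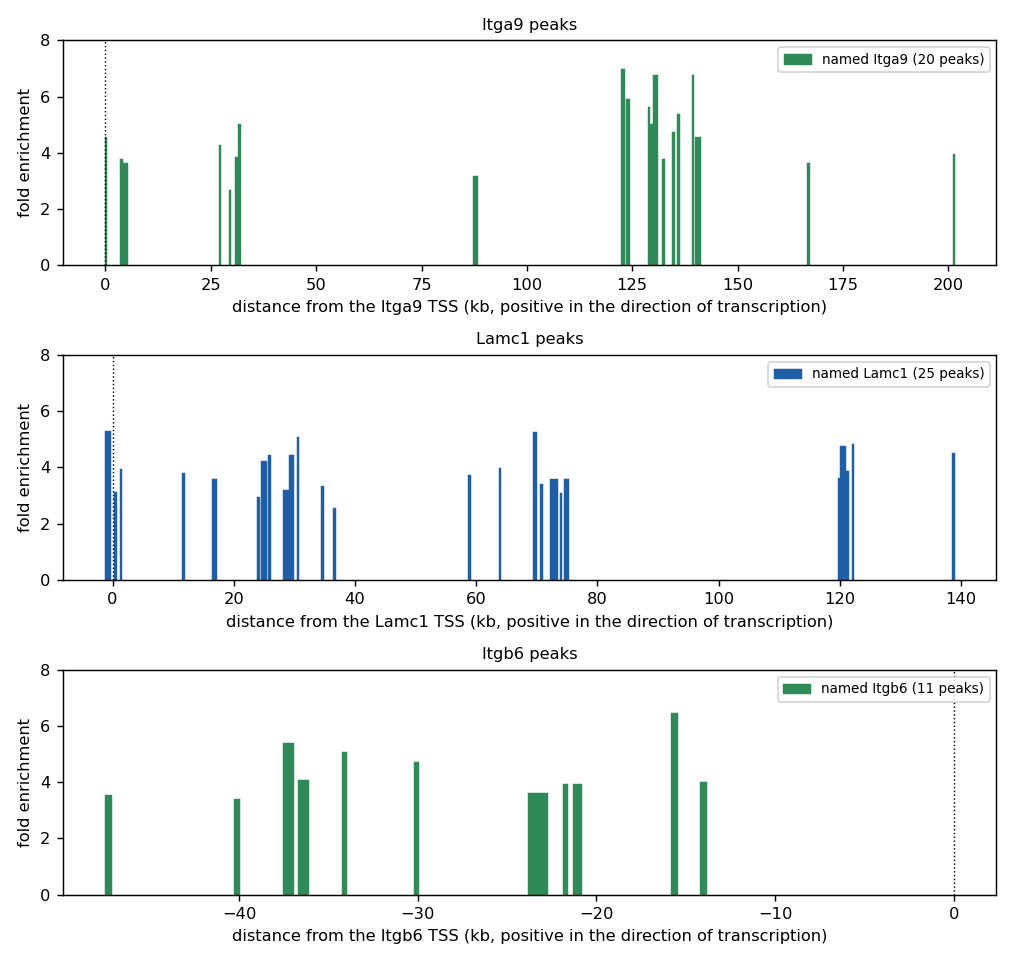
Fold enrichment (y axis) of peaks along the loci of Itga9, Lamc1 and Itgb6 (x axis, kb from the TSS of Itga9, Lamc1 and Itgb6, positive in the direction of transcription). Each bar is a peak, drawn from its start to its end with an outline that makes narrow peaks visible. Itga9 shows its cluster of 6.97-fold and less at 123 to 141 kb, Lamc1 a spread over intron 1, and Itgb6 peaks upstream alone.

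Of the laminin β chains, Lamb1 and Lamb2 had their strongest peak across the TSS. Lamb2, the β chain of muscle and vessel laminins, had 6.36-fold across its TSS, with the centre 667 bp downstream in exon 4, and 4.61-fold 1.06 kb upstream. Lamb1, the more widespread β chain, had 5.11-fold across the TSS and 3 intron peaks of 3.64 to 4.23-fold. Lamc3, a γ chain known from vessels and nerves, had 1 peak of 4.93-fold in exon 10, 28.3 kb downstream. Itgb8, which binds latent TGF-β with αv, had 1 peak of 3.50-fold in intron 5.

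Of the genes for integrin-binding proteins, Itgb1bp1 (ICAP1, an inhibitor of β1 activation) had 6 peaks and Itgb3bp, a centromere protein, had none. The promoter peak of Itgb1bp1 was 3.81-fold (chromosome 6, 43363052 to 43363253). The other 5 lay 17.9 to 57.9 kb downstream of its TSS, 4 of them in introns of a transcript that the annotation elsewhere names Asap2, including the strongest at 5.66-fold.

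Peaks at the chains of known receptors and laminins were counted together. Of 24 textbook integrin pairs, 13 had a peak at both chains, among them α1β1, α5β1, α6β1 and α7β1. In 6 pairs neither chain had one, and all 6 contain β2 or β7. Of 14 laminin trimers, 6 had a peak at all chains: laminins 411, 421, 511, 521, 423 and 523, which contain α4 or α5. In laminins 211 and 221 of muscle the α2 chain lacked a peak. These lists share chains and were drawn up after values were seen, so the counts are not independent and only restate the single genes. All of the 13 pairs but αIIbβ3 contain Itgb1 or Itgav, and the 6 empty pairs hold the peakless leukocyte genes. Of single protein-coding genes 27.1% had a peak, and no such share was worked out for pairs or trimers. Itgav, which completes 5 of the pairs, had 3 peaks, the strongest 4.96-fold in intron 1 (chromosome 3, 71114132 to 71114499, 215 bp downstream).

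Taken peak by peak, members were like the rest of the list in strength. The middle value of the 146 peaks was 4.18-fold, with quartiles of 3.66 and 4.82. The other 28560 peaks had a median of 4.13-fold and quartiles of 3.62 and 4.79. Peaks of at least 6-fold were 9 of 146 (6.16%), against 6.31%. Integrin α genes had a median of 4.43-fold over 46 peaks, integrin β genes 4.04-fold over 28 and laminin genes 4.17-fold over 66. The median number of peaks was 6 for each member name with a peak, against 2 over all gene names.

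The classes of member peaks depended on Itga9 and Lamc1. Introns held 81 member peaks (55.5%, 47.0 to 63.7%), against 43.7% of other peaks, and intergenic sequence 41 (28.1%, 21.0 to 36.1%), against 41.2%. Laminin genes had 44 of 66 peaks in introns (66.7%) and integrin β genes 18 of 28 between genes (64.3%). Those 18 were 11 peaks of Itgb6 and 7 of Itgb1, so the integrin β share describes these genes and not the other β chains. Lamc1 and Itga9 supplied 40 of the 81 intron peaks (49.4%). Without Lamc1 and Itga9, an alternative added after seeing the data, introns held 41 of 101 member peaks (40.6%, 30.9 to 50.8%) and intergenic sequence 40 (39.6%, 30.0 to 49.8%). These intervals include the 43.7% and 41.2% of other peaks. A peak interval covered the TSS at 9 members, among them Itga5, Itga9, Itgb1, Itgb3, Lama4, Lama5, Lamb1 and Lamb2. By peaks this was 9 of 146 (6.16%), near the 6.21% of other peaks.

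Genes that work with integrins and laminins were described from lists that hold no member. Of 27 genes of the integrin adhesion complex, 18 had a peak (66.7%, 46.0 to 83.5%), against 27.1% of all protein-coding genes. They were led by the tensin Tns2 at 11.1-fold (chromosome 7, 143704966 to 143710456), the scaffold paxillin (Pxn) at 10.2-fold (chromosome 12, 46829866 to 46835248) and zyxin (Zyx) at 8.76-fold (chromosome 4, 71740561 to 71741854). These were stronger than any member peak. Among the 9 without a peak were Tln1, the main talin, Ilk, the integrin-linked kinase, and Ptk2, the focal adhesion kinase.

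Of 15 basement membrane partners of laminin, 12 had a peak (80%, 51.9 to 95.7%), against 27.1% of all protein-coding genes. Col4a1 led with 7.24-fold, followed by Col4a4 at 6.54-fold and Col18a1 at 6.51-fold, and the 3 without a peak were Col4a5, Col4a6 and Fras1. Of 20 genes of the dystroglycan and sarcoglycan complex, the other laminin receptor of muscle, 7 had a peak (35.0%, 15.4 to 59.2%), a share near the 27.1% of all protein-coding genes. Utrophin (Utrn) led with 6.91-fold at its promoter, followed by Sgcd at 5.18-fold and Dtna at 4.81-fold. Dag1, which encodes dystroglycan itself, and Dmd, the dystrophin gene, were among the 13 without a peak. Of 17 other integrin ligands and counter-receptors, 6 had a peak (35.3%, 14.2 to 61.7%), also near the 27.1% of all genes. They were led by Ccn1 at 6.59-fold, Icam2 at 6.43-fold and Ccn2 at 5.63-fold, and fibronectin (Fn1) and Vcam1 had none.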

How the data were processed

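The deposited peak list and annotation of the ChIP library were used. The submitters' processing notes name build rn6, MACS2 and HOMER beside Bowtie2 and other read tools. Versions and the use of the input as background are not given in the sources used here. Per the file headers, the deposited values are a signal value, −log10 p and q values and a score for each peak. The signal value was read as the fold enrichment (a ratio to local background) that MACS2 writes in that deposited column. A path in a header names a q of 0.05, and the largest q was 0.0493. Fold enrichment is the authors' own value and describes peaks within this list only.

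Annotation and peaks were joined by peak name. A peak counts for the gene whose TSS is nearest, as named by HOMER. Of 8094 names, 78.7% matched a symbol or older symbol of the RefSeq table for GRCr8, which was used for names, gene order and promoter sequences. Its 23148 protein-coding symbols were the background. Shares have 95% Clopper-Pearson intervals (SciPy 1.17.1, Python 3.11.15), which were checked on simulated shares.

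Members, cell type groups and lists were chosen with earlier results of these data known, and the integrin pairs, laminin trimers and promoters shown were chosen after values were seen. The individual values of 1 member are not reported here, and counts over all members include it. Each other member was named, with coordinates for promoter peaks, for the strongest peak of each gene in the endothelial, cardiomyocyte and leukocyte groups, and for the 5 strongest and 3 widest peaks. From each list the 3 strongest genes are named, and the peakless genes named there were chosen after their values were seen. Alternatives were stricter thresholds, TSS windows, other group members and other weightings. Depth is unknown.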

Additional observations from a re-analysis of the deposited data

How the results depend on the processing

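The endothelial count was 5 of 5 under stricter thresholds (−log10 q of at least 5, fold enrichment of at least 4). It was 4 with both −log10 q of at least 5 and a centre within 1000 bp of the TSS, an alternative added after seeing the data. With Itgb3 and Lamb1 added it was 7, but both genes have peaks, so adding them could only raise the count and checks nothing. The cardiomyocyte count of 2 fell to 1 at −log10 q of at least 5 (Itgb1 remained) and to 1 without Itgb1. The leukocyte count stayed 0 at both thresholds and with 5 letter-named genes added, and became 2 when the platelet integrins were added. The count of members with a promoter peak, 10, was 4 at −log10 q of at least 5, 6 at fold enrichment of at least 4, and 16 with a centre within 3000 bp. The share of all protein-coding genes was not worked out under these alternatives, so these counts cannot be set against a background. The median fold enrichment, 4.18 (order-statistic interval 4.0 to 4.42), was 5.18 at −log10 q of at least 5, where all peaks had 5.20, and 5.66 with the strongest peak of each gene, where all names had 4.64 and fewer peaks each. Without Lamc1 and Itga9, the share of member peaks in introns fell to 40.6%, against 55.5% with them, and the intergenic share was 39.6%, against 28.1%. The count of members with any peak, 21, ranged from 16 to 22. No paired analysis was possible because 1 library had values. Depth is unknown and limits each absence of a peak.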

Other observations

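The name a peak carries depends on the nearest TSS, and some member genes hold peaks under another name. In introns of Itga1 there were 3 peaks named Pelo, of 3.24 to 4.42-fold (chromosome 2, the strongest at 47249627 to 47249914), and 1 peak of 3.64-fold named Usp19 was classed at the termination site of Lamb2. Conversely, of the 146 member peaks 84 lay in a transcript of their own name, 41 between genes and 4 in a transcript of another gene. The other 17 lay in a transcript whose gene name could not be read. A name could be read only where the transcript's TSS was the nearest to some peak, so these 17 may lie in the member itself.

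Members without a peak had neighbours with peaks in some cases. In the gene order of GRCr8, Lama2 stands between Ptprk with 2 peaks and Arhgap18 with 8, Itgb7 stands beside Rarg with 5, and Itgb2 stands between Pttg1ip with 1 and Slx9 with 6. Itga4 stands between Ube2e3 with 1 peak and Cerkl with 0. Whether any of these peaks lies in the member gene was not analysed here.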
